A study of Homo sapiens with 12 samples.

Results

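The set described here is a group of 9 transcription factor genes that govern the myeloid lineage, namely SPI1, RUNX1, MYB, GFI1, EGR1, EGR2, KLF2, KLF4 and IRF8. They were picked by gene symbol from the 59251 genes of an RNA-Seq count table, with earlier results of these data known. The 12 libraries came from HL60 cells, an established human myeloid leukemia line of promyelocyte-like blasts that lacks the PML-RARA fusion. Non-treated cells, cells given 1 µM all-trans retinoic acid (ATRA), cells given 1 µM palbociclib (CDK4/6i) and cells given both at those doses (CDK4/6i+ATRA) were sampled at 48 h, with 3 libraries in each group. All groups are the same line in the same medium, so every comparison is between drug states of 1 cell line. The controls are labeled untreated, and no group given solvent alone is among the samples. Effects of a drug and of its solvent therefore cannot be told apart.

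PU.1, the product of SPI1, and RUNX1 open and activate myeloid genes from the progenitor stage on, while MYB keeps progenitors dividing and has to fall before they mature. GFI1 is a repressor that favors granulocytes over monocytes, and EGR1, EGR2, KLF4 and IRF8 are known for roles on the monocyte and macrophage side. EGR1 and EGR2 also belong to the immediate early genes, which serum and growth factor signaling through ERK switches on within minutes. ATRA, a ligand of retinoic acid receptors, drives HL60 cells toward neutrophils, and palbociclib holds cells in G1 by blocking CDK4 and CDK6.

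Total counts per library ran from 12230923 to 18679544, and the CDK4/6i+ATRA libraries were the shallowest, at 12230923 to 14415276. A level is given below as the mean ± SD of CPM, the count scaled to library size with TMM factors. "Higher" and "lower" mean an adjusted p under 0.05 in the quasi-likelihood test of edgeR, with the Benjamini-Hochberg adjustment over the 13318 genes tested, and log2 fold changes carry their standard error (SE). The labels call the libraries biological replicates, and the study describes its expression analysis as drawn from independent experiments. In bulk RNA, fewer cells that use a gene and less of its RNA per cell cannot be told apart. Of the 7 promyelocyte markers MPO and SRGN were abundant, whereas ELANE, PRTN3, AZU1 and CFD had at most 1 count in any library, and each of those 4 genes is listed on more than 1 sequence of the assembly in the count table.

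Of the 9 factors, 8 passed the filter on low counts and IRF8 did not. ATRA alone changed 7 of the 8, with 5 higher and 2 lower, beside 67.6% of all tested genes (32.1% higher and 35.5% lower). CDK4/6i alone changed 6, with 5 higher and 1 lower, beside 56.2% of all tested genes (28.3% higher and 27.9% lower). All 8 tested factors differed between CDK4/6i+ATRA and non-treated cells, 6 higher and 2 lower, beside 81.7% of all tested genes, of which 41% were higher and 40.7% lower. Libraries of the groups compared did not overlap for 8 factors with ATRA, 7 with CDK4/6i and 8 with both, and the same was true of 70.3%, 60.7% and 81.8% of all tested genes. These shares lay near the background or rested on few genes, so the number of factors called says little, and the sizes and directions below carry the description. KLF4 passed the filter only through its counts in CDK4/6i+ATRA, and EGR2 and KLF2 only through the treated groups, which makes their place among the higher genes partly a matter of the filter.

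**Figure D1:**
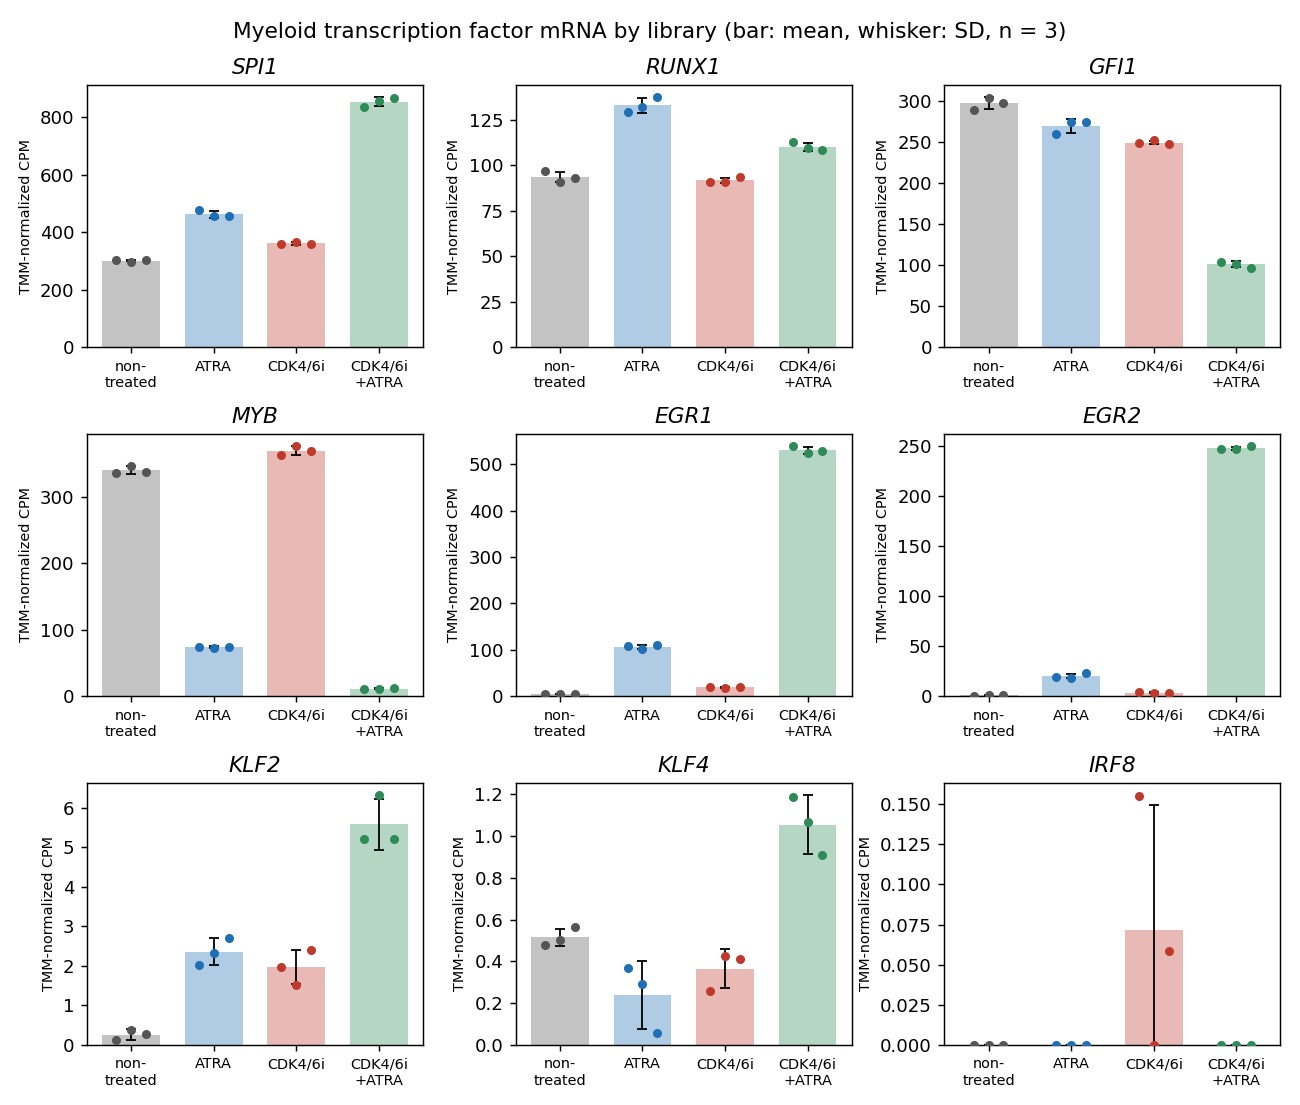
TMM-normalized CPM of the 9 factors (y axes, a separate linear scale for each gene, starting at 0) in the 4 groups (x axes), with a point for each library, bars at the mean and whiskers of 1 SD (n = 3). SPI1, EGR1, EGR2 and KLF2 are highest and MYB and GFI1 lowest in CDK4/6i+ATRA, RUNX1 is highest with ATRA alone, and IRF8 has 2 CDK4/6i libraries above 0 and no other.

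SPI1 (chr11:47354860-47395607, hg38, minus strand) was per length the most abundant of the 9 factors and rose with each treatment. Its counts were 5054, 4757 and 5386 in the non-treated libraries, 7746, 7813 and 8276 under ATRA, 6903, 5982 and 6172 with CDK4/6i, and 9143, 9637 and 10507 with both drugs. Scaled for depth, the 4 groups did not overlap, and the order was non-treated, CDK4/6i, ATRA and CDK4/6i+ATRA. Levels were 301.5 ± 3.02 CPM in non-treated cells, 462.9 ± 12.1 under ATRA, 361.2 ± 3.80 with CDK4/6i and 854.2 ± 15.5 with both drugs (SD, n = 3 each). In edgeR the log2 fold change against non-treated cells was 0.62 (SE 0.04, adjusted p = 2.90e-20) with ATRA, 0.26 (SE 0.04, adjusted p = 4.65e-08) with CDK4/6i and 1.503 (SE 0.04, adjusted p = 1.23e-36) with both. The combination thus stood 1.85-fold above ATRA alone and 2.37-fold above CDK4/6i alone.

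RUNX1 (chr21:34787801-35049302, minus strand), the DNA-binding subunit of core-binding factor, moved little. Its counts were 1609, 1447 and 1655 without treatment, 2098, 2267 and 2486 with ATRA, 1752, 1489 and 1595 with CDK4/6i, and 1229, 1227 and 1314 with both. The ATRA libraries lay above all others, and the non-treated and CDK4/6i libraries overlapped. Levels were 93.4 ± 2.99 CPM without drug, 132.8 ± 4.07 under ATRA, 91.6 ± 1.39 with CDK4/6i and 110.1 ± 2.15 with both. RUNX1 rose with ATRA by a log2 fold change of 0.51 (SE 0.04, adjusted p = 2.06e-15). CDK4/6i gave -0.03 with a 95% interval of -0.11 to 0.06 (adjusted p = 0.594).

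The direction of RUNX1 under the combination depended on the scaling. With TMM the log2 fold change of CDK4/6i+ATRA against non-treated cells was 0.24 (SE 0.04, adjusted p = 4.21e-06), without the filter on low counts it was 0.13 (adjusted p = 0.0383), and with library size alone it was -0.03 (adjusted p = 0.550). Library size alone moved the median of all tested genes in that comparison from 0.02 to -0.25, and relative to that median RUNX1 stood at 0.22 under either scaling. By TPM, which scales counts for both gene length and library size, RUNX1 was at 26.0 ± 0.663 in non-treated cells and 22.9 ± 1.70 with both drugs. The exons of RUNX1 share 157 bases with LOC112267915 on the opposite strand, which held 333 counts over all libraries beside 20168 for RUNX1, and whether the counting used strand is not stated in the sources used here.

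MYB (chr6:135181308-135219172, plus strand), the activator that sustains progenitor growth, showed the steepest fall of the set. Its counts were 5598, 5536 and 6007 without drug, 1210, 1235 and 1348 under ATRA, 7018, 6166 and 6323 with CDK4/6i, and 108, 124 and 154 with both. The groups did not overlap, with CDK4/6i slightly above and both ATRA-containing groups far below the non-treated libraries. Levels went from 340.3 ± 5.72 CPM to 73.6 ± 1.45 with ATRA, 369.8 ± 6.43 with CDK4/6i and 11.2 ± 1.42 with both, the last being 3.30% of the non-treated level. On the log2 scale MYB fell by 2.21 with ATRA (SE 0.04, adjusted p = 1.11e-41) and fell by 4.92 with CDK4/6i+ATRA (SE 0.06, adjusted p = 2.03e-50), a 30.2-fold fall. CDK4/6i alone raised MYB by 0.12 (SE 0.04, adjusted p = 0.00352). Although CDK4/6i alone left MYB higher, the level with both drugs was 6.53-fold lower than with ATRA alone (adjusted p = 5.90e-36). Among the 13318 tested genes the fall of MYB under the combination ranked 208th from the lowest. The exons of MYB share 135 bases with LOC105378011 on the opposite strand, which held 39 counts over all libraries beside 40827 for MYB.

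GFI1 (chr1:92473043-92486925, minus strand), the granulocytic repressor, fell in each treated group and fell most with both drugs. Counts were 4826, 4860 and 5292 without drug, 4214, 4711 and 4983 under ATRA, 4799, 4131 and 4245 with CDK4/6i, and 1137, 1142 and 1174 with both. The single-drug libraries lay just below the non-treated ones and the combination libraries far below all of them. Levels were 297.3 ± 7.36 CPM without treatment, 269.6 ± 8.81 with ATRA, 249.6 ± 2.21 with CDK4/6i and 100.9 ± 3.66 with both, which is 33.9% of the non-treated level. The log2 fold changes were -0.14 (SE 0.04, adjusted p = 6.70e-04) for ATRA, -0.25 (SE 0.04, adjusted p = 5.65e-08) for CDK4/6i and -1.56 (SE 0.04, adjusted p = 1.28e-35) for CDK4/6i+ATRA.

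EGR1 and EGR2, zinc finger activators of the immediate early class, rose more than any other factor of the set with ATRA and with both drugs. Part of a RefSeq promoter window of each gene (GRCh38.p14, from 150 to 21 bases before the start site) is shown because both hold the same pair of elements known from serum response promoters. Capitals mark CArG boxes, the elements that serum response factor binds, and CRE cores, searched as CGTCA on both strands and read as TGACG where the match is on the other strand. The EGR1 stretch is chr5:138465329-138465458 on the plus strand and that of EGR2 is chr10:62816387-62816516 on the minus strand, before the start at 62816366, which lies inside the gene as counted and is not its outermost start.
EGR1: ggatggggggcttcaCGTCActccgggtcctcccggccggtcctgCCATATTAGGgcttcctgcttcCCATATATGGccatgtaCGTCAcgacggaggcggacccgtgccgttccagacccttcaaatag
EGR2: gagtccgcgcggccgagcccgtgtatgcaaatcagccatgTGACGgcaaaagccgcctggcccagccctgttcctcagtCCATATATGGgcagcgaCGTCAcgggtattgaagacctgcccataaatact
In EGR1 the CArG boxes began 105 and 83 bases before the start and the CRE cores 135 and 66 bases before it. In EGR2 the CArG box began 71 bases before the start and the CRE cores 110 and 54 bases before it, and the windows at the other 2 RefSeq starts of EGR2 held neither. Of 35116 RefSeq promoter windows of the same length, 1.29% held a CArG box and 24.6% the CRE core. Among the other factors, the KLF4 window held CRE cores too, beginning 247 and 210 bases before its start, and no CArG box. Such a match describes the letters of the window and does not show binding in these cells.

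EGR1 (chr5:138465479-138469303, plus strand) had 68, 72 and 87 counts without treatment and 1753, 1746 and 1973 with ATRA. It had 392, 289 and 315 counts with CDK4/6i, and 5883, 5879 and 6398 with both. The groups were fully separated, in the order non-treated, CDK4/6i, ATRA and CDK4/6i+ATRA. The level rose from 4.50 ± 0.406 CPM to 106.2 ± 3.91 with ATRA, 18.8 ± 1.37 with CDK4/6i and 530.1 ± 7.77 with both. The log2 fold changes against non-treated cells were 4.56 (SE 0.07, adjusted p = 9.73e-45), 2.06 (SE 0.10, adjusted p = 2.46e-24) and 6.88 (SE 0.06, adjusted p = 3.69e-55), the last a 117-fold rise. With both drugs EGR1 was 4.99-fold higher than with ATRA alone and 28.1-fold higher than with CDK4/6i alone.

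EGR2 (chr10:62811996-62819167, minus strand) showed the same order of groups from a lower start. Its counts were 7, 8 and 9 without drug, 315, 309 and 409 under ATRA, 70, 51 and 49 with CDK4/6i, and 2692, 2767 and 3022 with both. No group overlapped another. The level was 0.476 ± 0.0483 CPM without treatment, 19.99 ± 2.34 with ATRA, 3.20 ± 0.389 with CDK4/6i and 247.4 ± 1.75 with both. The log2 fold change was 5.37 (SE 0.16, adjusted p = 2.41e-32) with ATRA, 2.74 (SE 0.25, adjusted p = 2.77e-13) with CDK4/6i and 8.998 (SE 0.11, adjusted p = 9.93e-51) with both. The 511-fold rise of EGR2 under the combination was the 53rd from the highest of 13318 tested genes, and that of EGR1 was the 164th. As EGR2 rose further than EGR1, the ratio of EGR1 to EGR2 by TPM went from 9.49 ± 0.401 in non-treated cells to 5.37 ± 0.456 with ATRA, 5.92 ± 0.462 with CDK4/6i and 2.15 ± 0.0375 with both. The EGR2 folds and the non-treated ratio start from 7 to 9 counts of EGR2. The counting error of so few reads is part of the SE of these folds.

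**Figure D2:**
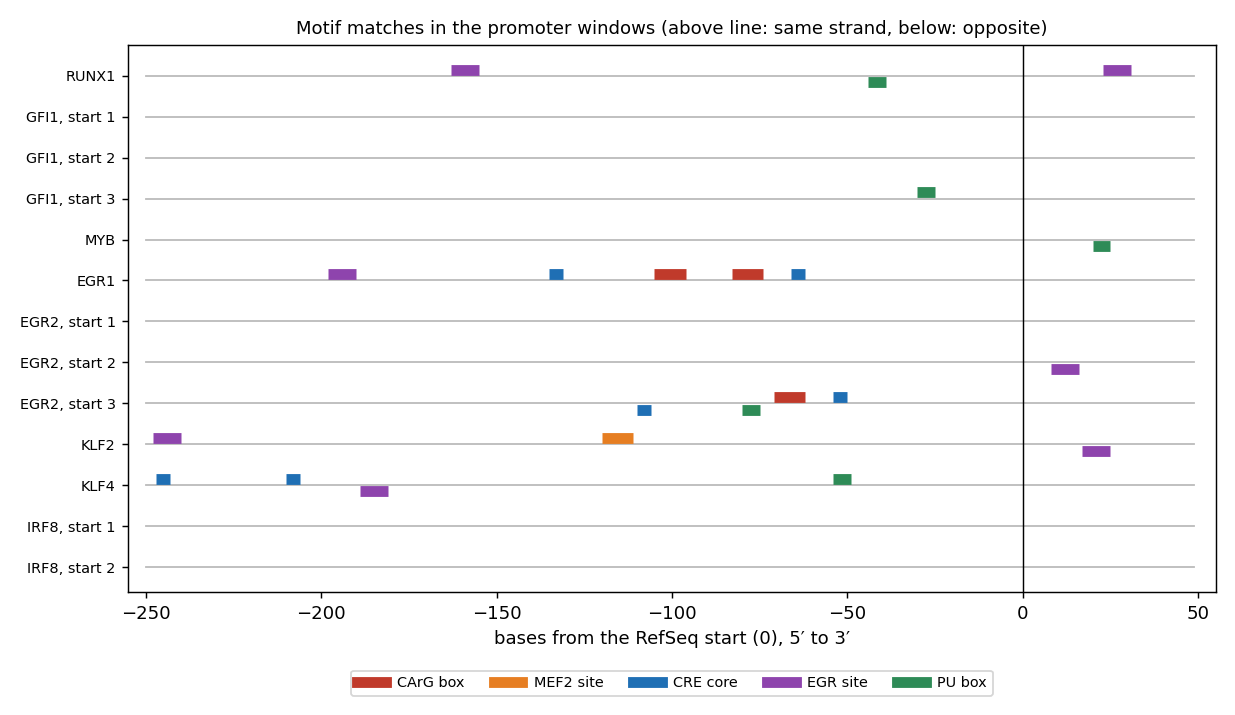
Positions of 5 motifs in 13 RefSeq promoter windows of 8 of the factors (rows; all but SPI1), as distance from the annotated start (x axis, bases; above the line, same strand as the gene, and below, the opposite strand). CArG boxes (red) appear in 2 windows, those of EGR1 and the third EGR2 start, and the MEF2 site (orange) in the KLF2 window.

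A pair of further motifs was searched on both strands of the 13 windows. The EGR site GCGNGGGCG was found in 5 windows, those of RUNX1, EGR1, KLF2, KLF4 and another EGR2 start, beside 9.43% of all windows, and overlapped no other motif there. The PU box GAGGAA, a short form of the element that PU.1 binds, was found in 5 windows beside 27.9% of all windows.

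KLF2 (chr19:16324826-16328685, plus strand), a Krüppel-like factor known for holding leukocytes in a resting state, was rare in non-treated cells and higher in each treated group. Its stretch from 150 to 21 bases before the start (chr19:16324676-16324805, plus strand) is shown for the element in capitals, a MEF2 site, which is known to receive ERK5 signaling and which began 120 bases before the start. A MEF2 site was held by 2.99% of all windows, and no other window of the set had it.
KLF2: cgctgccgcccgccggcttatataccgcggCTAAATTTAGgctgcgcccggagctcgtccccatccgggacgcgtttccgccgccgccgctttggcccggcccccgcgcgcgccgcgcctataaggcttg
Counts of KLF2 were 2, 6 and 5 in the non-treated libraries, 33, 40 and 49 under ATRA, 38, 25 and 41 with CDK4/6i, and 57, 71 and 63 with both. ATRA and CDK4/6i libraries overlapped each other, and both lay between the non-treated and the combination libraries. Levels were 0.259 ± 0.129 CPM, 2.36 ± 0.337, 1.96 ± 0.435 and 5.58 ± 0.642 in that order. The log2 fold changes were 3.16 (SE 0.37, adjusted p = 2.24e-10) with ATRA, 2.89 (SE 0.39, adjusted p = 8.11e-09) with CDK4/6i and 4.39 (SE 0.34, adjusted p = 1.22e-16) with both. The rise with CDK4/6i ranked 59th from the highest of all tested genes, beside 68th for EGR2 and 166th for EGR1. These folds start from 2 to 6 counts, and the counting error of so few reads is part of their SE.

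KLF4 (chr9:107484852-107489769, minus strand), known as an activator of monocyte genes, stayed near the limit of detection, with 1 to 13 counts in any library. It had 8, 8 and 10 counts without drug, 6, 5 and 1 under ATRA, 5, 7 and 7 with CDK4/6i, and 13, 12 and 11 with both. The ATRA and CDK4/6i libraries lay below the non-treated ones, and the combination libraries above them. The level was 0.515 ± 0.0428 CPM in non-treated cells and 1.06 ± 0.142 with both drugs, a log2 fold change of 1.02 (SE 0.45, adjusted p = 0.0371). That call was lost in DESeq2 (1.05, adjusted p = 0.0657), without the filter on low counts (0.91, adjusted p = 0.149), with library size alone (0.75, adjusted p = 0.121), and when any non-treated library or CDK4/6i+ATRA replicate 1 or 2 was left out (0.92 to 1.08, adjusted p from 0.0617 to 0.110). ATRA gave -1.12 with a 95% interval of -2.24 to 0.01 (adjusted p = 0.0738), and CDK4/6i gave -0.51 with an interval of -1.53 to 0.52 (adjusted p = 0.417). The ATRA value was -1.55 (adjusted p = 0.0441) without ATRA replicate 1 and -0.64 (adjusted p = 0.346) without ATRA replicate 3.

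IRF8 (chr16:85899162-85922609, plus strand), the interferon regulatory factor that directs monocyte and dendritic cell fate, was not detectable at this depth in 3 of the 4 groups. Of 12 libraries 10 had no count, and CDK4/6i replicates 1 and 3 had 3 and 1. A count of 0 allows up to 3 counts, which is 0.155 to 0.275 CPM in these libraries, a limit for counting error only. The gene shares no exon bases with another gene and is listed on 1 sequence. No fold change is given.

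**Figure D3:**
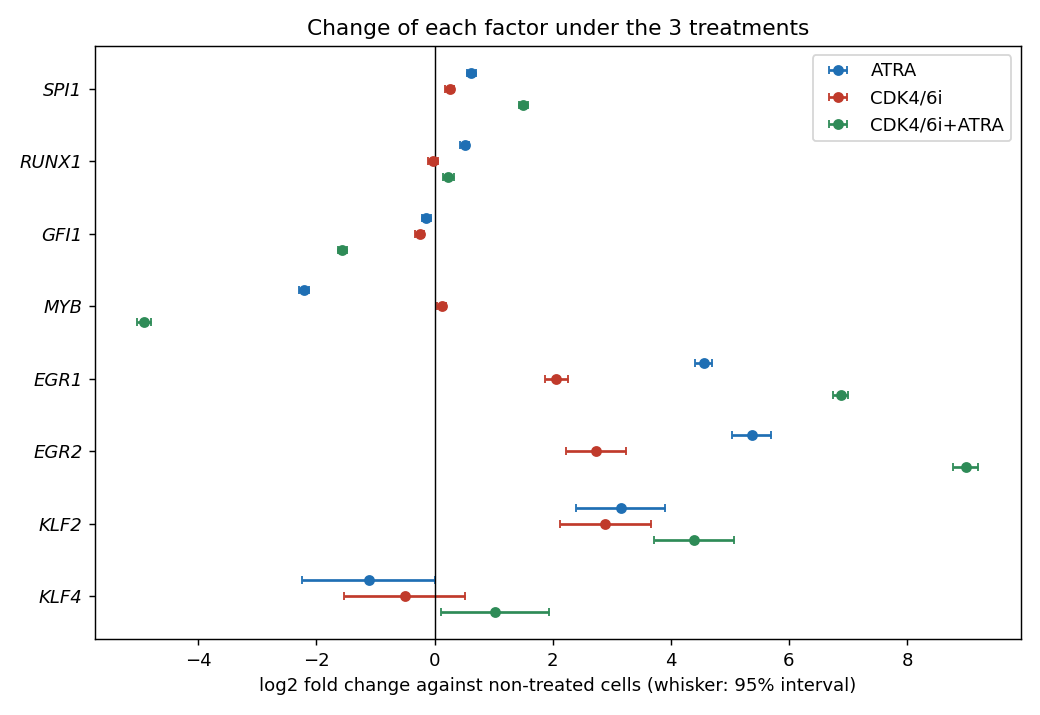
Fitted log2 fold change against non-treated cells (x axis) of the 8 tested factors (rows) with ATRA (blue), CDK4/6i (red) and CDK4/6i+ATRA (green), with 95% intervals (n = 3 libraries a group). EGR1, EGR2 and KLF2 are higher in all 3 treatments, MYB falls with ATRA and further with both, and the small green rise of RUNX1 turns to -0.03 when libraries are scaled by total counts alone.

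Levels can be ordered between genes only per length, so the following order uses mean TPM. In non-treated cells it was SPI1 (257.7 ± 2.87), MYB (207.5 ± 4.60), GFI1 (123.6 ± 3.95), RUNX1 (26.0 ± 0.663) and EGR1 (3.75 ± 0.371), with KLF4, EGR2 and KLF2 under 1 and IRF8 at 0. KLF4 and EGR2, and EGR2 and KLF2, overlapped between libraries, and the other neighbors did not. In CDK4/6i+ATRA the order was SPI1 (543.2 ± 19.7), EGR1 (328.9 ± 22.3), EGR2 (152.9 ± 7.65), GFI1 (31.3 ± 2.78), RUNX1 (22.9 ± 1.70), MYB (5.07 ± 0.391), KLF2 (3.85 ± 0.435), KLF4 (0.679 ± 0.127) and IRF8, and no neighbors overlapped. EGR1 and EGR2 had thus passed GFI1, RUNX1 and MYB. With ATRA alone EGR1 (91.4 ± 3.70) came behind SPI1 (408.8 ± 9.63) and GFI1 (115.8 ± 4.26) and ahead of MYB (46.4 ± 1.07). With CDK4/6i alone the order of the leading 5 was that of non-treated cells, and no neighbors overlapped. The same order was found by length-scaled counts with TMM library sizes.

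The balance of SPI1 to MYB and to GFI1 shifted most in the combination. The ratio of SPI1 to MYB by TPM was 1.24 ± 0.0330 in non-treated cells, 1.37 ± 0.00945 with CDK4/6i, 8.82 ± 0.189 with ATRA and 107.8 ± 11.6 with both. The ratio of SPI1 to GFI1 was 2.09 ± 0.0706, 2.98 ± 0.0161, 3.54 ± 0.212 and 17.4 ± 0.937 in the same order. In neither ratio did libraries of different groups overlap.

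Whether the drugs acted on each factor as the single treatments would predict was asked with the interaction term, which is the log2 effect of ATRA in the presence of CDK4/6i minus its effect without. Of the 8 tested factors 7 had an interaction, 3 above and 4 below 0, beside 51.4% of all tested genes (24.5% above and 27% below). MYB was at -2.83 (SE 0.08, adjusted p = 2.37e-32) and GFI1 at -1.17 (SE 0.06, adjusted p = 1.17e-23), so both fell further than the product of the single-drug folds. That product was 80.0 CPM for MYB and 226.4 for GFI1, against measured levels of 11.2 and 100.9. SPI1 was at 0.62 (SE 0.05, adjusted p = 1.49e-14), with a product of 554.6 CPM and a measured 854.2, and with library size alone it was at 0.30 (adjusted p = 3.40e-07). KLF4 was at 2.64 (SE 0.74, adjusted p = 0.00220), from the few counts given above. It was tested only through its counts in CDK4/6i+ATRA, so the direction of this value was in part fixed by the filter.

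Of the early response factors, EGR1 was near the product. It had an interaction of 0.26 with a 95% interval of 0.02 to 0.49 (adjusted p = 0.0590), a product of 443.7 CPM and a measured 530.1, far above the 120.5 CPM that adding the single-drug differences would give. The EGR1 value was -0.06 (adjusted p = 0.668) with library size alone, though relative to the median of all genes it was 0.28 under either scaling, and it passed the threshold without non-treated replicate 1 (0.31, adjusted p = 0.0453) or CDK4/6i replicate 1 (0.32, adjusted p = 0.0213). EGR2 was at 0.89 (SE 0.35, adjusted p = 0.0295), with a product of 134.4 CPM and a measured 247.4. The EGR2 call was lost without non-treated replicate 1, 2 or 3 (0.83 to 0.96, adjusted p from 0.0510 to 0.112) or CDK4/6i replicate 3 (0.81, adjusted p = 0.0551), and with library size alone (0.57, adjusted p = 0.161). KLF2 was below the product, at -1.66 (SE 0.48, adjusted p = 0.00292), with 5.58 CPM measured against a product of 17.9 and a sum of 4.06. RUNX1 was at -0.24 (SE 0.06, adjusted p = 6.37e-04), with 110.1 CPM measured against 130.2, and at -0.56 (adjusted p = 9.75e-10) with library size alone.

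**Figure D4:**
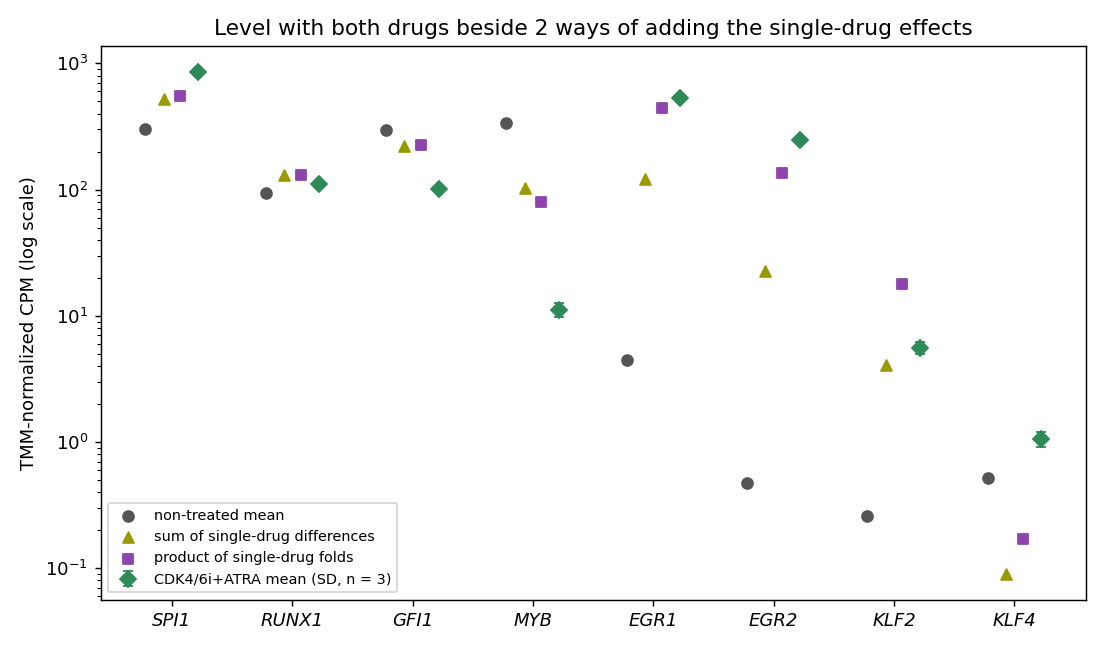
Level of the 8 tested factors in TMM-normalized CPM (y axis, log scale) in non-treated cells (grey) and with CDK4/6i+ATRA (green, SD, n = 3), beside the level that the single-drug differences add up to (triangles) and the level that the single-drug folds multiply to (squares). MYB and GFI1 lie below and SPI1 and EGR2 above both marks, KLF2 lies between them, and EGR1 sits near the square.

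The combination differed from each single drug in all 8 tested factors. Against CDK4/6i alone 6 were higher and 2 lower, beside 78.6% of all tested genes called (39.1% higher and 39.5% lower). Against ATRA alone 5 were higher and 3 lower, beside 69.8% (36.9% higher and 32.8% lower). KLF4 was among the higher in both comparisons, having been tested only through its counts in CDK4/6i+ATRA. The libraries of the groups did not overlap for any of the 8 in either comparison, as for 78.9% and 71.9% of all tested genes. The smallest of these differences was that of RUNX1, at 0.26 against CDK4/6i (SE 0.04, adjusted p = 4.99e-07) and -0.27 against ATRA (SE 0.04, adjusted p = 1.95e-07), and with library size alone they were -0.01 (adjusted p = 0.794) and -0.58 (adjusted p = 2.99e-14). SPI1 against ATRA went from 0.88 to 0.58 (adjusted p = 1.77e-18) with that scaling.

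The relatives of the factors were read from lists of family members, partners and known targets that leave out the 9 factors themselves. All counts in this and the next 4 paragraphs are of CDK4/6i+ATRA against non-treated cells unless another treatment is named, the median of all tested genes was 0.02, and for comparison 41% of all tested genes were higher and 40.7% lower. For ATRA alone these shares were 32.1% and 35.5%, and for CDK4/6i alone 28.3% and 27.9%. A gene that passed the filter on low counts only through groups where it was high had its direction in part fixed by the filter, and such genes are counted beside each list that held any. Of the ETS family, to which PU.1 belongs, 12 of 16 genes were tested, 7 were higher and 3 lower, and the median log2 fold change was 0.42. ELK3, a partner of serum response factor, rose from 14.7 to 96.2 CPM (log2 fold change 2.71), and ETS2 from 31.1 to 111 CPM (1.83). The ETS relatives SPIB and SPIC had at most 3 and 0 counts in any library. Among 6 tested genes of the IRF family 4 were higher, 1 of them tested only through treated groups, and 1 was lower, tested only through groups other than the combination, with a median of 1.27. IRF1 rose from 10.9 to 72.1 CPM (2.72) and IRF2 from 17.4 to 50.9 CPM (1.55). IRF1 was at 75.6 CPM with ATRA alone, and its interaction was -0.02 (adjusted p = 0.929).

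In the EGR family with its NAB corepressors, EGR3 rose from 0.332 to 64.3 CPM (log2 fold change 7.54) and NAB2, a feedback repressor that EGR factors induce, from 7.52 to 128 CPM (4.09). Of the 4 tested genes 3 were higher, EGR3 having been tested only through treated groups, and 1 was lower, with a median of 3.08, and EGR4 had no count in any library. NAB2 was at 28.3 CPM with ATRA and 7.83 with CDK4/6i, with an interaction of 2.13 (adjusted p = 3.56e-19). Of 12 tested immediate early genes of the serum response 9 were higher and 1 lower, the latter tested only through groups other than the combination, with a median of 1.73. FOS rose from 1.61 to 131 CPM (6.34) and BTG2, an inhibitor of proliferation, from 7.20 to 1219 CPM (7.39). With ATRA 8 of the 12 were higher and 2 lower, and with CDK4/6i 5 were higher and 4 lower. The rise was not shared by DUSP1, which stayed between 0.465 and 0.907 CPM in the group means, and DUSP1 was chosen for mention after its values were seen.

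In the KLF family 6 of 10 tested genes were higher and 4 lower, 2 of these 4 tested only through groups other than the combination, with a median of 1.03. KLF10, a gene induced by TGF-beta, rose from 9.18 to 51.2 CPM (log2 fold change 2.48), and KLF5 fell from 17.1 to 3.31 CPM (-2.36). Of 8 listed targets of KLF2 and KLF4 only 3 were tested, 2 of them through treated groups alone, so their being higher says nothing about the list. CD36, a scavenger receptor, was at 0 in non-treated and CDK4/6i cells, 5.18 CPM with ATRA and 26.1 CPM with both. Of 3 tested RUNX relatives RUNX2 (0.74) and RUNX3 (0.76) were higher and CBFB, the partner subunit of RUNX1, was lower (-0.22).

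For MYB, 7 of 11 genes on a list of progenitor targets were tested and lower, with a median of -4.08, and 2 of the 7 passed the filter only through groups other than the combination. MPO, the myeloperoxidase of primary granules, fell from 6509.8 to 27.9 CPM (log2 fold change -7.86), and BCL2, which protects cells from apoptosis, from 122 to 6.03 CPM (-4.34). With ATRA 6 of the 7 were lower, and with CDK4/6i 5 were lower and 1 higher. MYBL2, the proliferation-linked relative of MYB, fell from 379 to 20.2 CPM with CDK4/6i alone, where MYB itself rose, and to 5.28 CPM with both (-6.16). The coactivators CREBBP (1.11) and EP300 (1.01) were higher. Of the 9 tested stem cell and erythroid-megakaryocytic factors 8 were lower, BCL11A having been tested only through groups other than the combination, and 1 was higher, with a median of -1.497. GATA2 fell from 222 to 14.7 CPM (-3.91) and BCL11A from 35.4 to 0.343 CPM (-6.63).

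Of 10 listed genes known to be repressed by GFI1, 8 were tested and higher, but 5 of the 8 passed the filter on low counts only through treated groups, so the count was in part fixed by the filter. The 3 that passed it in non-treated cells were also higher. CSF1, the macrophage growth factor, rose from 0.353 to 174 CPM (log2 fold change 8.90), and CDKN2B, the CDK4 and CDK6 inhibitor p15, from 0.453 to 53.2 CPM (6.84). The 8 were also higher with ATRA alone, where GFI1 itself was at 90.7% of its non-treated level, and with CDK4/6i 2 were higher and 1 lower. Of 7 tested genes of the GFI1 paralogue and LSD1-CoREST corepressor list, 3 were higher and 3 lower, with a median of 0.00, among them KDM1A (LSD1) from 206 to 70.0 CPM (-1.56) and PHF21A from 23.2 to 72.3 CPM (1.64). For PU.1, 11 of 12 tested myeloid targets were higher, 1 of them tested only through treated groups, and 1 was lower, with a median of 2.63. ITGAM, the integrin CD11b, rose from 9.24 to 589 CPM (5.99). With ATRA 10 of the 12 were higher and with CDK4/6i 11. Of 11 tested macrophage and dendritic factors 6 were higher and 3 lower, with a median of 0.42, and 4 of the 6 passed the filter only through treated groups. NR4A3 went from 0.0584 to 41.1 CPM and ZEB2 from 57.8 to 373 CPM (2.69). Scaling by library size alone turned the direction of ELF1, HDAC1, BTK and SRF in these lists and of no other gene called in them. The lists were drawn up with earlier results of these data known and overlap in a few genes, so their counts do not support one another.

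**Figure D5:**
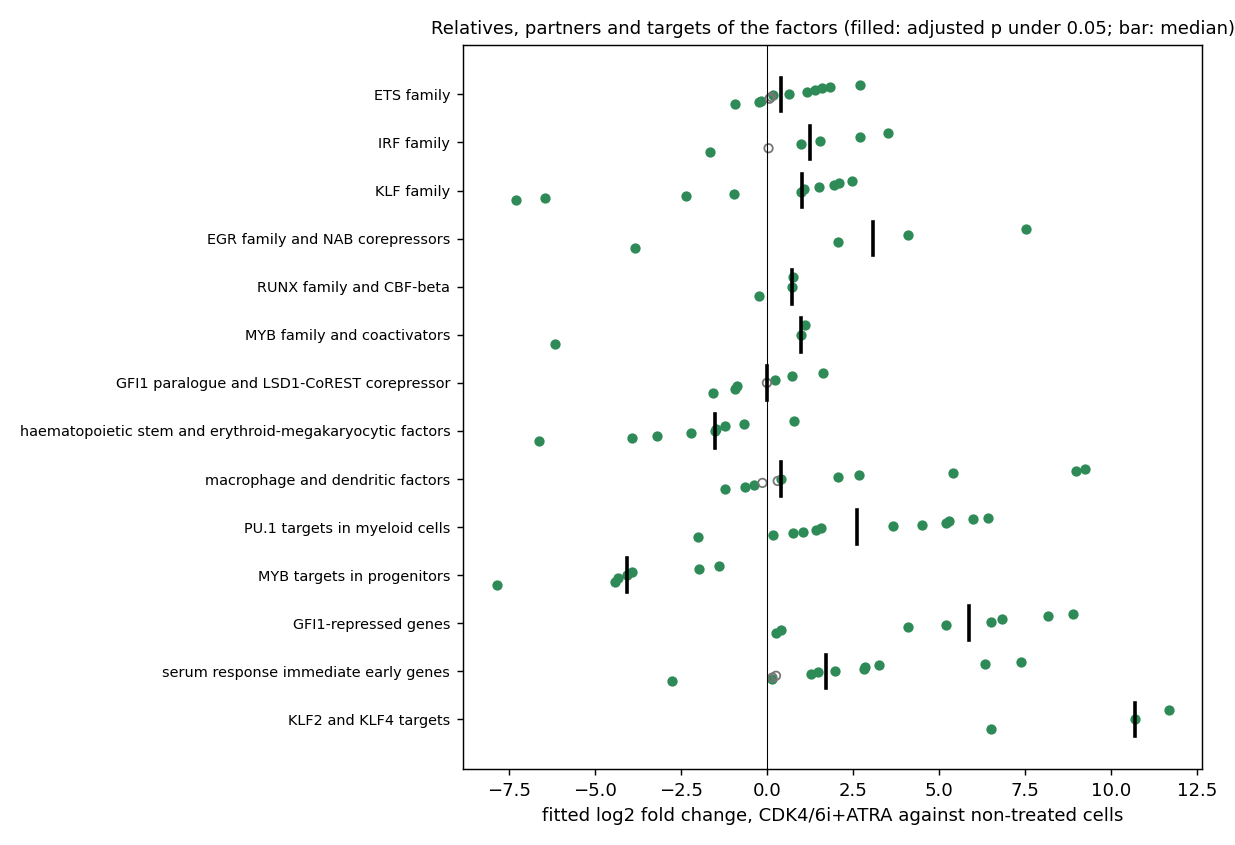
Fitted log2 fold change of CDK4/6i+ATRA against non-treated cells (x axis) for the tested genes of 14 lists of relatives, partners and targets of the factors (rows; a point for each gene, filled at adjusted p under 0.05, black bars at the median). The 7 MYB targets lie below 0 and 11 of 12 PU.1 targets above it, the family lists straddle it, and 5 of the 8 GFI1-repressed genes, which lie above it, were tested only through treated groups.

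Genes that followed a factor most closely over the 3 treatments were found by the distance between their 3 log2 fold changes, among tested genes with a mean of at least 5 CPM. Nearest to SPI1 were the mitochondrial ND6 (distance 0.0207), PCGF3 and ND5, and nearest to GFI1 were MBNL3 (0.0435), SMTN and USP48. For MYB they were P2RY2 (0.206), STEAP3 and TAF4B, and for RUNX1 ZNF75A (0.0715), USP33 and RMND5B. Close neighbors were fewer for EGR1, EGR2, KLF2, KLF4 and MYB than for SPI1, GFI1 and RUNX1. For EGR1 the nearest were ARHGEF3 (0.466), CDKN1A and CCL2, and ATP9A and IL1A were among those for EGR2. KLF2 was nearest to SLFN5 (0.673), CR1 and ITGB7, and KLF4 to MFSD2A (0.404), BAHCC1 and SNX8.

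Marker genes of cell types also differed between the groups. The summed level of 7 promyelocyte markers was 9015 to 9439 CPM in non-treated cells, 1990 to 2119 under ATRA, 7850 to 8072 with CDK4/6i and 2813 to 3047 with both. For 15 neutrophil markers it was 132.2 to 141.5, 344.3 to 350.1, 204.8 to 212.9 and 570.1 to 622.1 CPM in the same order, and for 15 monocyte-macrophage markers 40.0 to 42.1, 46.8 to 48.9, 69.7 to 76.8 and 164.0 to 173.8 CPM. Of the 3 promyelocyte markers tested, MPO and CTSG were lower with both drugs, CTSG having been tested only through other groups, and SRGN, at 2736.9 CPM without drug and 2917 with both, made up nearly all of that sum in the combination (log2 fold change 0.09, adjusted p = 0.0467, and -0.17 with library size alone). Beside 41% higher and 40.7% lower among all tested genes, 8 of 9 tested neutrophil markers were higher with both drugs, 3 of which passed the filter only through treated groups, among them FPR1 from 0.836 to 65.3 CPM, and of the monocyte-macrophage markers 4 of 8 were higher and 2 lower, 1 of the 4 having passed only through treated groups, among them CD86 from 1.20 to 82.9 CPM. The defining monocyte marker CD14 had at most 5 counts and CD163 at most 1 in any library. Summed T cell, B cell, erythroid and megakaryocyte markers stayed at or below 25.3 CPM in every library, with MS4A1, TRAC, HBA1, HBB and PF4 at 0 throughout. The part of these changes in cell state in the levels of the 9 factors was not tested.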

How the data were processed

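RNA-Seq of total RNA from 12 HL60 samples was analyzed, 3 for each of the 4 groups, which were read from the sample titles. The libraries were made with a directional kit. The authors deposited raw read counts per gene, not normalized, with exon positions in hg38 and the NCBI RefSeq annotation. The submitters' processing notes name Trimmomatic 0.33 and STAR 2.7.11a. The paper names RSEM for quantification, while the table has the layout of featureCounts and whole numbers, and the strand setting of the counting is not given in the sources used here.

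Counts were used as deposited. Of 59251 genes, 31154 had no count in any library, and filterByExpr kept 13318. Testing used TMM factors and the quasi-likelihood F test of edgeR 4.0.16 (R 4.3.3) with a coefficient for each group and 8 residual degrees of freedom, two-sided, and Benjamini-Hochberg adjustment at 0.05. The biological coefficient of variation common to all genes was 3.70%. The 95% intervals are not adjusted. DESeq2 1.42.0, other scalings and filters, the replicate number as a block, fits to the compared groups alone, and leaving out each library were alternatives. The fit was tested on simulated counts in which 200 genes were changed. Depending on the comparison it recovered 141 to 157 of them, with 8 to 14 false calls. The simulation gave all genes the same dispersion and held no shift of most genes, so it does not test the scaling. TPM used the gene lengths in the table. All libraries were counted as separate replicates because the labels call them biological replicates. Between replicates of a group the chi-square divided by its degrees of freedom was 1.85 to 6.81. Such spread exceeds counting error but cannot show whether the cultures were separate.

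The 9 factors and the 21 gene lists were chosen with earlier results of these data known. All 9 factors are named. From each list the 2 called genes with the largest change under CDK4/6i+ATRA and a mean of at least 5 CPM are named, and for each factor the 3 genes with the nearest changes. Genes named beyond this rule (EGR4, SPIB, SPIC, CBFB, EP300, DUSP1 and markers at or near 0) were chosen after their values were seen. A few genes that the rule names are not reported here. Promoter windows are RefSeq's, for 8 of the 9 factors.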

Additional observations from a re-analysis of the deposited data

Results flagged for a closer look

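In 7 of the 8 tested factors the effect of ATRA in the presence of CDK4/6i differed from its effect without it, by the interaction term of the edgeR fit. On the log2 scale the difference was 0.62 for SPI1, -1.17 for GFI1, -2.83 for MYB, 2.64 for KLF4, -1.66 for KLF2, 0.89 for EGR2 and -0.24 for RUNX1. Beside this, 51.4% of all tested genes had an interaction. KLF4 was tested only through its counts in CDK4/6i+ATRA, so the direction of its value was in part fixed by the filter. For KLF4 and KLF2 the values start from 1 to 10 counts in the groups at the low end, and for EGR2 from 7 to 9 counts in non-treated cells. Groups of 3 libraries are too small for a test of outlying libraries, and none was made.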

How the results depend on the processing

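Of 886 recomputed log2 fold changes of the factors, 865 kept their direction and side of the threshold, 14 lost the call, 4 gained it and 3 changed sign. The 3 sign changes arose with library size alone: RUNX1 with both drugs at -0.030 (adjusted p = 0.550, edgeR) against the non-treated libraries and at -0.013 (adjusted p = 0.794) against CDK4/6i, and EGR1 at -0.060 (adjusted p = 0.668) for the interaction. That scaling moved the median of all genes in the combination against non-treated cells from 0.02 to -0.25 and the share of called genes that were higher from 50.2% to 40.5%, and for the interaction from -0.02 to -0.34 and from 47.5% to 18.5%. Requiring 10 or more counts in every library left 5 factors called in each of the 3 comparisons of CDK4/6i+ATRA with another group, since EGR2, KLF2 and KLF4 were then not tested.

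Leaving out a library gave 7 to 8 factors called with ATRA, 6 with CDK4/6i, 7 to 8 with both against no drug, 8 against either single drug, and 6 to 8 with an interaction. Of the calls lost, 8 were KLF4 in the combination and 6 the interaction of EGR2, which without a filter on low counts was 0.80 (adjusted p = 0.102). EGR1 gained its interaction call with the filter of 10 counts (0.26, adjusted p = 0.0441). With the replicate number as a block the calls were 7, 6 and 8 for ATRA, CDK4/6i and both against non-treated cells, and the replicate block changed no call of a factor. The numbers did not pair the libraries: the deviations of 18 same-numbered pairs correlated at -0.114 to 0.0702. The fit to the compared groups alone cannot give an interaction. Depth limits KLF4, IRF8, and KLF2 and EGR2 in non-treated cells. A library held at most 13 counts of KLF4 and 3 of IRF8. Without drug it held at most 6 of KLF2 and 9 of EGR2.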
